A study of Mus musculus with 11 samples.

Results

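Excitatory nuclei of the mouse cortex that carried transcripts of Tshz2 and Vwc2l were taken as 1 set, here called Tshz2/Vwc2l nuclei. Tshz2 encodes a zinc finger transcription factor of the teashirt family and Vwc2l a secreted protein with von Willebrand C domains. A nucleus was a member when it held at least 2 UMIs of Slc17a7, the vesicular glutamate transporter VGLUT1, and at most 1 UMI of Gad1 and Gad2 together, the enzymes that make GABA. It also held at least 5 UMIs of Tshz2 and 2 of Vwc2l, no more Hs3st4 than Tshz2, and less Cux2 and less Rorb than Tshz2. UMIs are random tags put on RNA molecules at capture, and counting them removes copies made by PCR. The rule gave 497 members among 20466 excitatory nuclei (Slc17a7 nuclei), which is 2.43% of those and 0.442% of the 112539 nuclei that passed the filters on genes and mitochondrial UMIs. The 8 genes of the rule chose the members, so their levels beside other nuclei are a description and were not tested. They were not removed before the tests between genotypes.

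Tshz2 and Vwc2l are used in mouse cortex atlases to mark near-projecting neurons, excitatory cells of the deep layers whose axons stay close to the cell body and send little to the thalamus, brainstem or other cortical areas. Their neighbours are the extratelencephalic neurons of layer 5, which project to the brainstem and spinal cord, and the corticothalamic neurons of layer 6, for which the heparan sulfate enzyme gene Hs3st4 is a marker. Tshz2 is also transcribed in other cells of the cortex and of the retrosplenial and hippocampal border, so the pair alone does not define the type.

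The nuclei came from frozen cortex of 11 mice, 1 library per mouse, labelled as female, although the study's methods name only male mice for RNA-seq (with Xist at 1062 ± 276 CPM in members, where CPM is the count scaled to the same summed UMIs in every mouse, given as mean ± SD) and 8.39 to 10.85 months old. Ikbkb encodes IKKβ, a kinase upstream of NF-κB, and was intact in the non-transgenic mice (ikbkb+/+, n = 4). P301S mice had intact Ikbkb and carried human tau with the P301S mutation (ikbkb+/+; P301S+, n = 3), which in the PS19 line is driven by the prion promoter, active mainly in neurons. Ikbkb-/- P301S mice (ikbkb-/-; P301S+, n = 2) lacked Ikbkb, and IkbkbCA P301S mice (n = 2) expressed a constitutively active form of the kinase (ikbkbCA; P301S+), and both alleles depend on Cx3cr1-CreERT2, a tamoxifen-induced Cre of microglia. By the study's genotype definitions the non-transgenic and P301S controls carried the floxed allele of their line but no Cre, and littermates without Cre were also given tamoxifen. The kinase allele and the CreERT2 copy at Cx3cr1 therefore cannot be told apart in the last 2 groups. The floxed line supplied non-transgenic mice 1 and 2, P301S mice 1 and 2 and both Ikbkb-/- P301S mice, and the active IKKβ line supplied the rest, so each kinase allele came from 1 line, while both control groups came from both. The labels mark the samples as separate mice, and the p-values measure the spread between them.

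Members numbered 71, 37, 81 and 18 in non-transgenic mice 1 to 4, 44, 29 and 17 in P301S mice 1 to 3, 67 and 49 in the Ikbkb-/- P301S mice, and 36 and 48 in the IkbkbCA P301S mice. Non-transgenic mouse 4 and P301S mouse 3 thus gave fewer than 20 members each, and in a scaling plot of the summed counts these were the 2 libraries that stood apart, at -1.47 on the second and 1.84 on the first axis. Summed UMIs ranged from 153662 in P301S mouse 3 to 1084959 in Ikbkb-/- P301S mouse 1, and the median nucleus held from 7405 to 20288 UMIs. Of 110968 distinct barcodes, 1556 occurred in 2 or more libraries, 11 of the members' barcodes were also found in another library, and none (0) was a member in more than 1. Doublet calls marked 95 members (19.1%), compared with 11.8% of all Slc17a7 nuclei and 8.42% of all nuclei. In members the host gene Mapt, which encodes mouse tau, stood at 482 ± 60.7 CPM (mean ± SD, n = 11), and Ikbkb, targeted only in microglia, at 45.2 ± 13.6 CPM.

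The thresholds cut through a continuous range of values. The 22 members with 5 to 7 Tshz2 UMIs had a pooled level of 431 CPM, and the 18 nuclei left out with 3 or 4 had 244 CPM. The 63 members with exactly 2 Vwc2l UMIs stood at 135 CPM of Vwc2l, compared with 78.2 CPM in the 92 nuclei left out with 1. A further 564 nuclei met every other criterion with 0 Vwc2l UMIs. In addition, 1369 nuclei met every other criterion with 0 or 1 UMI of Slc17a7, at a lower median depth of 8803 UMIs, with 3720 CPM of Tshz2 and 911 CPM of Vwc2l. A further 127 nuclei failed only because Hs3st4 exceeded Tshz2. Among the 19969 other Slc17a7 nuclei, 17.5% had a Tshz2 UMI and 15.3% a Vwc2l UMI at a median depth of 12677 UMIs, compared with 11951 UMIs in members, and free RNA was not told apart from low transcription in them.

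Within the members Tshz2 stood at 3281 ± 505 CPM (n = 11), from 2519 CPM in Ikbkb-/- P301S mouse 2 to 4179 CPM in IkbkbCA P301S mouse 1. Vwc2l stood at 738 ± 133 CPM, from 476 CPM in Ikbkb-/- P301S mouse 1 to 890 CPM in non-transgenic mouse 1. For reference, 3 other classes of Slc17a7 nuclei were formed from the gene with the most UMIs: 8058 Hs3st4 nuclei (mainly layer 6), 3663 Cux2 nuclei (mainly upper layers) and 2579 Rorb nuclei (mainly layers 4 and 5). Tshz2 averaged 82.7, 18.7 and 28.3 CPM in these classes. Hs3st4 was itself abundant in members, at 979 ± 353 CPM, compared with 2939 CPM in the Hs3st4 class. These are genes of the rule, and the values show only what was selected.

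Checked against markers, the near-projecting label held for a minority of the members. Clustering of the 497 members alone gave 7 clusters of 196, 81, 76, 64, 41, 22 and 17 nuclei. Cluster 1, with 39.4% of members, had the highest level of 9 of the 10 near-projecting markers, 7 of which the rule did not use, and is called near-projecting-like. The tenth, Cpne7, was listed at 0 in every mouse and class, so it marks nothing here. Clustering without the 8 rule genes returned the same 196 nuclei, while at a finer resolution of 0.5 cluster 1 was split and the 497 members fell into 12 clusters. Each genotype group had near-projecting-like nuclei in every mouse, with 20, 20, 15 and 11 nuclei in the non-transgenic, 25, 15 and 12 in the P301S, 19 and 13 in the Ikbkb-/- P301S and 24 and 22 in the IkbkbCA P301S mice. Genes that define a cluster are reported as description, since the same counts made the clusters.

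**Figure D1:**
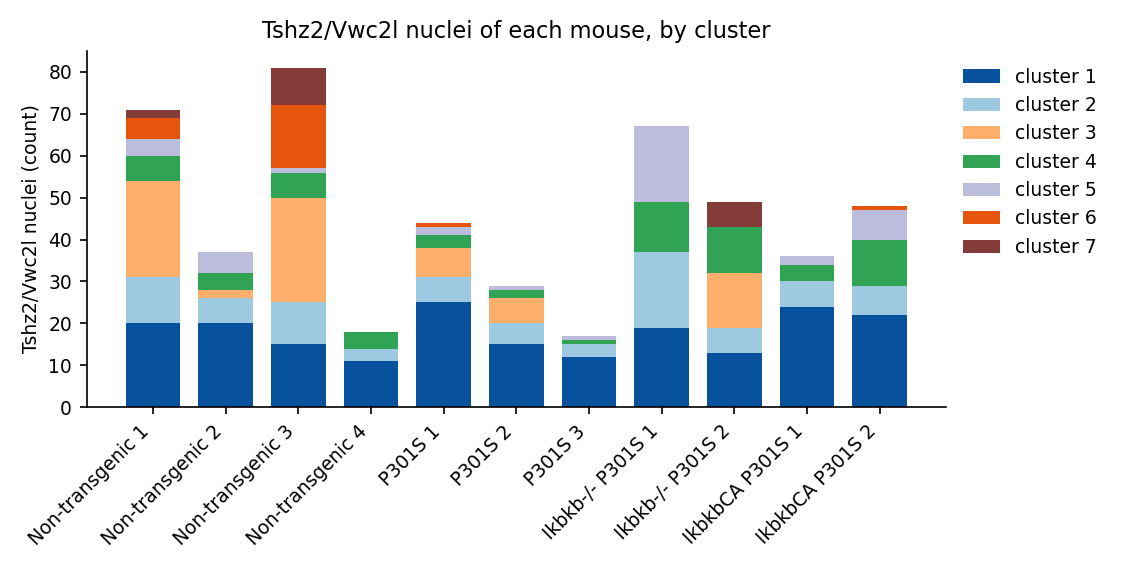
Number of Tshz2/Vwc2l nuclei per mouse (bar height, nuclei), divided by cluster (colours), with the mice ordered by genotype. Cluster 1 was present in all 11 mice with 11 to 25 nuclei, whereas clusters 3, 6 and 7 together ranged from 0 to 49.

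The near-projecting-like nuclei transcribed a compact group of receptor, transporter and transcription factor genes. Trhr, the receptor for thyrotropin-releasing hormone (chr15:44196135-44235912, mm10), stood at 78.0 ± 29.1 CPM (SD, n = 11) in cluster 1, with 36.1 CPM in the lowest and 123 CPM in the highest mouse. Slc17a8, which encodes the vesicular glutamate transporter VGLUT3 (chr10:89574020-89621253), stood at 59.2 ± 26.2 CPM, from 17.7 to 103 CPM. Both had at most 16.4 CPM in any other cluster, and Slc17a8 was listed at 0 in clusters 3, 5 and 6. Slc17a8 was found in 59 of the 196 nuclei (30.1%), at a median depth of 8856 UMIs, and in 0% to 5.88% of nuclei of the other clusters, at median depths of 10628 to 18306 UMIs. Trhr was found in 82 (41.8%), compared with 0% to 23.5%.

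Etv1, an ETS transcription factor gene of layer 5, reached 291 ± 58.3 CPM in cluster 1. Rapgef3, which encodes the cyclic AMP sensor Epac1, reached 58.5 ± 16.5 CPM. Lypd1, whose product binds nicotinic acetylcholine receptors, reached 136 ± 61.6 CPM and varied most between mice of these 3 genes, from 58.6 to 236 CPM. The remaining markers Met, a receptor tyrosine kinase, and Sla2, an adaptor of immune receptor signalling, were sparse at 12.7 ± 11.6 and 10.8 ± 8.19 CPM and were at 0 in some mice. The 10 markers summed to between 5778 and 8183 CPM per mouse in cluster 1, of which Tshz2 (5122 ± 654 CPM) made up most.

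Cluster 1 also held corticothalamic markers. It was highest of the 7 clusters in 5 of 6 corticothalamic markers, among them the rule gene Hs3st4 at 2122 ± 265 CPM and the forkhead gene Foxp2 at 167 ± 58.0 CPM. For Foxp2 the Hs3st4 class was higher still, at 354.02 CPM. The corepressor gene Tle4 stood at 469 ± 67.0 CPM in cluster 1, compared with 258, 44.1 and 55.5 CPM in the Hs3st4, Cux2 and Rorb classes, and Fezf2, which specifies deep-layer projection neurons, at 44.8 ± 12.3 CPM, compared with 13.2, 0.823 and 4.66 CPM. Tle4 and Fezf2 were thus above, and Foxp2 under, the level of the Hs3st4 class.

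The 10 genes that led cluster 1 over every other cluster were Kcnip1, Hmga2, Lcp1, Svil, Col24a1, Slc17a8, Nxph1, Grik1, Neto2 and Kremen1. Kcnip1 (chr11:33629339-33993152) encodes an accessory subunit of A-type Kv4 potassium channels and stood at 546 ± 165 CPM in cluster 1, with at most 46.0 CPM pooled in another cluster. Nxph1 (chr6:8948431-9249032) encodes neurexophilin 1, a secreted ligand of α-neurexins, and stood at 2048 ± 509 CPM, with at most 309 CPM elsewhere. Grik1, the kainate receptor subunit GluK1, and Neto2, an auxiliary subunit of kainate receptors, were pooled at 942 and 466 CPM, with at most 148 and 81.2 CPM elsewhere. A receptor subunit gene and that of an auxiliary subunit were thus highest in the same cluster. Nxph1 was found in 178 of 196 nuclei (90.8%), compared with 25% to 38.3% in the other clusters, and Kcnip1 in 174 (88.8%), compared with 5.26% to 18.5%.

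Nxph1 is also on the list of inhibitory neuron markers, 5 of whose 10 genes were highest in cluster 1 (summed 2277 CPM, of which Nxph1 made 2044 CPM). The defining genes Gad1 and Gad2 were limited by the rule and stood at 5.01 ± 5.35 and 2.95 ± 4.84 CPM there. Markers of other cells moved with the cluster too. The astrocyte list was highest in cluster 1 in 4 of 7 genes (summed 1062 CPM, compared with 232 to 601 CPM in the others), and the microglia list in 4 of 5 (summed 90.5 CPM, compared with 25.02 to 43.8 CPM). The doublet share of cluster 1 was 14.3%. What part such RNA had in the levels of cluster 1 was not tested.

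**Figure D2:**
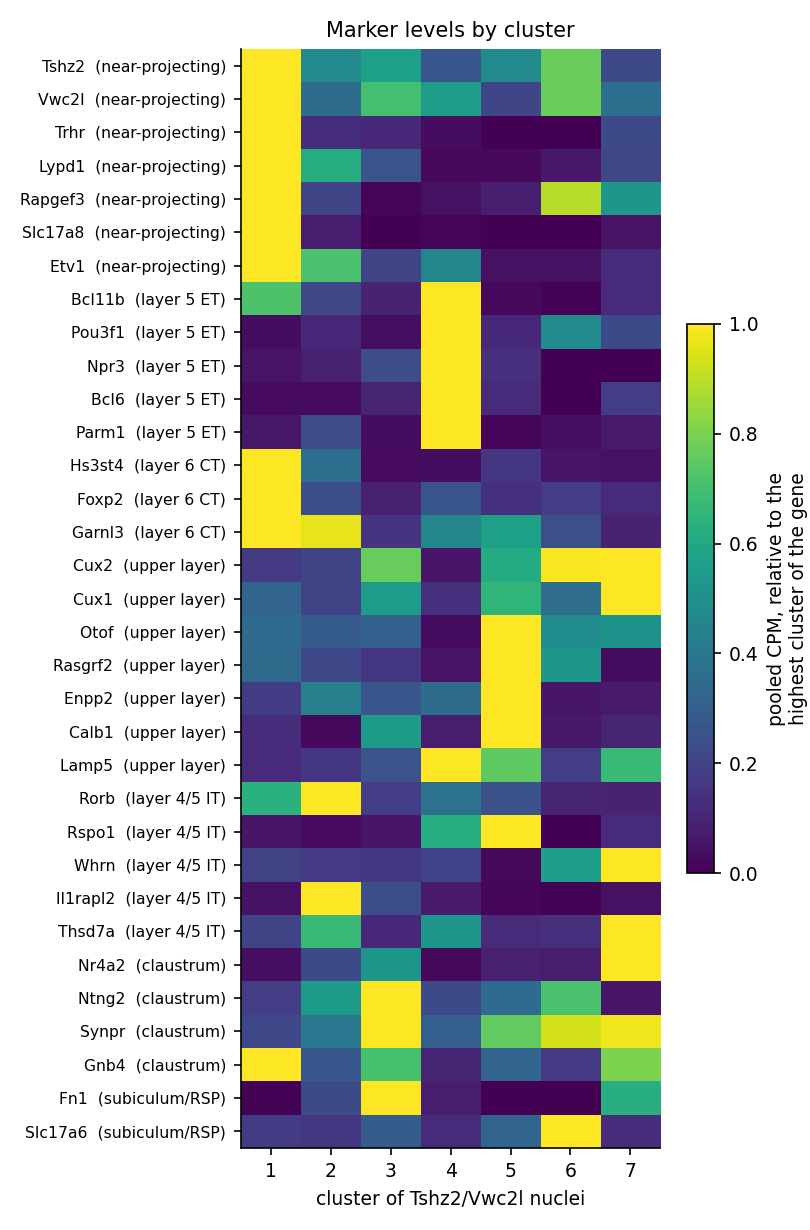
Pooled level of 33 marker genes (rows, grouped by list) in the 7 clusters of Tshz2/Vwc2l nuclei (columns), each as a share of the cluster in which the gene was highest. The 7 near-projecting markers shown are brightest (highest) in cluster 1 and the layer 5 extratelencephalic markers in cluster 4.

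Cluster 4 (64 nuclei, 12.9%) was highest in 7 of 7 markers of layer 5 extratelencephalic neurons and is called extratelencephalic-like. Its leading genes were Erg, Trpc7 and Col26a1, with Parm1 at 325 CPM compared with at most 73.8 CPM elsewhere. It had the lowest Hs3st4 but 1 (68.3 CPM), 618 CPM of Vwc2l and only 1347 CPM of Tshz2. Trhr was at 2.53 CPM and Slc17a8 at 0.843 CPM there.

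Clusters 2, 3, 5, 6 and 7 stayed unnamed. Cluster 2 (81 nuclei) was led by Prr5l, St18, Il1rapl2 and Ankfn1, and was highest in 5 of 6 oligodendrocyte markers, which summed to 442 CPM compared with 75.5 to 249 CPM in the others. Of its nuclei, 35.8% were called doublets. Cluster 3 (76 nuclei, 32.9% called doublets) was led by Cdc14a, the endoplasmic reticulum gene Wfs1 and the long non-coding RNAs Gm34466 and Gm32647. It had almost no Hs3st4 (60.1 CPM), 368 CPM of Cux2 and 785 CPM of Vwc2l. What part doublets had in clusters 2 and 3 was not tested.

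Cluster 5 (41 nuclei) was led by Stard8, Igfn1 and Herc6 and was highest in 4 of 7 upper-layer markers. Cluster 6 (22 nuclei) was led by the receptor tyrosine kinase gene Kit and Rph3al and had 104 CPM of Slc17a6, which encodes VGLUT2. Cluster 7 (17 nuclei) was led by Rerg at 585 CPM, with at most 9.12 CPM elsewhere, and by Rxfp1, a relaxin receptor gene, at 493 CPM. No nucleus (0) of clusters 6 and 7 was called a doublet. The 5 subiculum and retrosplenial markers, Slc17a6 among them, summed to 104, 108 and 78.8 CPM in clusters 3, 6 and 7. The other clusters had 19.4 to 33.99 CPM. Over all members they summed to 36.1 CPM, compared with 9.94, 10.7 and 20.03 CPM in the Hs3st4, Cux2 and Rorb classes. Of these markers, Fn1 was at least 2-fold above all classes. Whether nuclei of the retrosplenial or hippocampal border were among the members was not tested.

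The unnamed clusters were spread unevenly over the mice. Clusters 3, 6 and 7 together made up 42.3%, 5.41%, 60.5% and 0% of members in non-transgenic mice 1 to 4 and 18.2%, 20.7% and 0% in P301S mice 1 to 3. They made up 0% and 38.8% in the Ikbkb-/- P301S mice and 0% and 2.08% in the IkbkbCA P301S mice. Cluster 5 held 18 of its 41 nuclei in Ikbkb-/- P301S mouse 1 alone. The near-projecting-like share of members ranged in turn from 18.5% in non-transgenic mouse 3 to 70.6% in P301S mouse 3. Values averaged over all members therefore mixed different nuclei in different mice, and for a part of the results values in cluster 1 are given beside those of all members.

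Set against the 3 other excitatory classes, 104 of 10659 genes (0.976%) were at least 2-fold higher in members than in every class, and 71 (0.666%) at least 2-fold lower. These ratios, log2 of CPM + 1 and taken as the median over mice, rest on the contrast that chose the members and were not tested. Apart from the rule genes, the 25 leading genes with at least 50 CPM held long non-coding RNA, synaptic, receptor and cytoskeletal genes. For 15 of the 25 the highest level lay in cluster 1, for 5 in cluster 4, for 3 in cluster 3 and for 2 in cluster 6. Their spread between mice was wide, with a median coefficient of variation of 35.3% compared with 19.7% over all 3232 genes of that level. Within cluster 1 these were 30.1% and 26.9%.

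First in rank was Gm26883, a long non-coding RNA at 523 ± 154 CPM, compared with 13.7, 3.27 and 4.76 CPM in the Hs3st4, Cux2 and Rorb classes. Its gene (chr2:169633646-169888503, minus strand) lies wholly inside Tshz2 (chr2:169633013-170071816, plus strand). It amounted to 11.1% to 19.5% of the Tshz2 level in the 11 mice, to 13.5% to 17.9% in the 7 clusters and to 16.6% to 17.5% in the 3 classes. Whether strand was used in counting is not given in the sources used here, so its reads and those of the rule gene Tshz2 cannot be told apart, and it is not a separate finding.

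Next were genes that cluster 1 also led. Lcp1, the actin-bundling protein L-plastin (chr14:75131101-75230842), stood at 84.8 ± 44.6 CPM in members (35.8, 63.2 and 162 CPM in the lowest, median and highest mouse) and at 3.88 CPM or less in the classes. Nxph1 stood at 778 ± 313 CPM (367, 716 and 1298 CPM), compared with 55.3, 37.0 and 39.2 CPM. Kcnip1 stood at 224 ± 134 CPM (71.6, 218 and 469 CPM), compared with 18.7, 10.4 and 8.90 CPM. In all 11 mice these 3 genes were above all 3 classes of the same mouse. In the nuclei left out only for 0 or 1 Slc17a7 UMI they were higher than in members, at 101, 1103 and 370 CPM. In those left out only for 0 or 1 Vwc2l UMI they stood at 5.53, 83.0 and 17.1 CPM. Lcp1 and Kcnip1 each overlap genes on the opposite strand, and with strand use in counting not given their reads were not told apart.

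Etv1 stood at 177 ± 55.5 CPM (85.1, 180 and 270 CPM), compared with 45.01, 15.6 and 33.4 CPM, and Lypd1 (chr1:125867622-125913101) at 82.5 ± 64.7 CPM (28.6, 67.6 and 247 CPM), compared with 13.3, 15.97 and 10.5 CPM. In the nuclei left out only for Slc17a7 they stood at 184 and 92.1 CPM, and in those left out only for Vwc2l at 112 and 103 CPM. Grik1 stood at 389 ± 137 CPM, compared with at most 118 CPM in a class. Of the synaptic release genes, Unc13c, which encodes the vesicle-priming protein Munc13-3, stood at 179 ± 83.7 CPM, compared with 60.0, 26.02 and 29.2 CPM. Sv2c, a synaptic vesicle glycoprotein gene, stood at 73.2 ± 41.6 CPM, compared with at most 21.7 CPM. Its level came from other clusters than the genes above, with 247 CPM in cluster 4 and 250.2 CPM in cluster 6 but 27.0 CPM in cluster 1.

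Htr2c, Htr4 and Npsr1 are receptor genes among the 25. Htr2c, the serotonin receptor that couples to Gq, stood at 180 ± 62.0 CPM (71.4, 194 and 263 CPM), compared with 68.5, 36.8 and 48.8 CPM. Htr4, which couples to Gs, stood at 82.0 ± 26.5 CPM (40.0, 84.6 and 124 CPM), compared with 30.2, 6.07 and 6.19 CPM. Both were highest in cluster 1, at 288 and 159 CPM, with Htr2c nearly as high in cluster 5 (280.2 CPM). Npsr1, the neuropeptide S receptor gene, stood at 92.2 ± 73.1 CPM, and 1 mouse, Ikbkb-/- P301S mouse 1 with 286 CPM, was far above the others (19.99 to 128 CPM). Htr2c, Htr4 and Npsr1 stood at 267, 110 and 101 CPM in the nuclei left out only for Slc17a7. In those left out only for Vwc2l they stood at 145, 38.6 and 98.5 CPM.

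**Figure D3:**
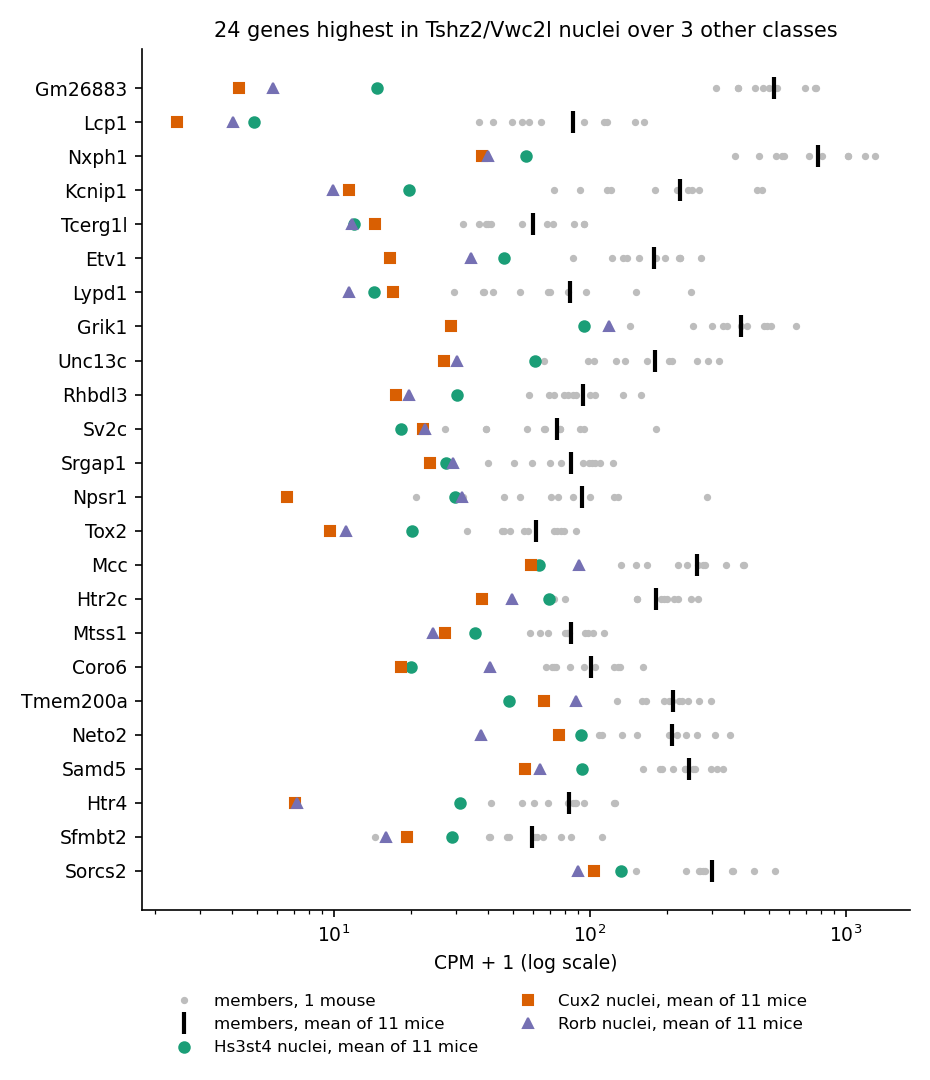
Level of the first 24 leading genes in Tshz2/Vwc2l nuclei (1 dot per mouse, 11 mice, CPM + 1 on a log axis, tick at the mean) beside the mean of the Hs3st4, Cux2 and Rorb classes. For Lcp1, Nxph1 and Kcnip1 every mouse lies above all 3 class means, while Sfmbt2 was above all 3 classes of the same mouse in 9 of 11 mice.

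The genes counted here had a mean of at least 5 CPM in the members or in any of the 3 classes. Over all 10659 such genes, 0.976% were 2-fold above all classes and 0.666% 2-fold lower. Of these genes, 2 of 5 serotonin receptors (Htr2c, Htr4), 2 of 26 synaptic release genes (Unc13c, Sv2c), 1 of 27 potassium and HCN channels (Kcnip1), 1 of 35 glutamate receptors and scaffolds (Grik1) and 1 of 20 cortical transcription factors (Etv1) were 2-fold above all classes. Of 45 guidance and adhesion genes, Nxph1 and the netrin gene Ntn1 (23.0 ± 14.1 CPM) were above and the semaphorin gene Sema3a (32.5 ± 8.61 CPM) was lower than all. Of 16 peptide receptors, Trhr was above and the cholecystokinin receptor gene Cckbr (13.9 ± 7.32 CPM, compared with 31.2, 42.3 and 28.5 CPM) was lower. Of 21 activity-induced genes, the activin subunit gene Inhba (2.98 ± 2.08 CPM, compared with 7.42, 17.0 and 11.9 CPM) and the immediate early gene Fos (1.70 ± 2.56 CPM, compared with 5.21, 5.09 and 5.97 CPM) were 2-fold lower than all classes. None (0) of 19 calcium and sodium channels, 15 GABA receptors, 22 tau and tau kinase genes, 17 stress response genes or 10 NF-κB genes passed 2-fold in either direction. At the shares over all genes, 0 in lists of this size is not a result about these genes. Layer 6b markers were near 0 (summed 2.29 CPM, with Nxph4 and Cplx3 at 0). Genes of the mitochondrial genome summed to 400 CPM, compared with 228, 176 and 238 CPM in the classes.

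Markers of other cells in the members were read against the classes as well. The oligodendrocyte list summed to 191 CPM on average (95.8 to 407 CPM over mice), compared with 191, 205 and 191 CPM. The astrocyte list summed to 662 CPM (436 to 1050 CPM), compared with 787, 404 and 833 CPM, and the microglia list to 50.3 CPM (18.0 to 109 CPM), compared with 38.3, 36.4 and 42.3 CPM. Vascular markers summed to 9.23 CPM, with Cldn5 at 0. Over all members the oligodendrocyte and astrocyte sums lay within the range of the 3 classes, and the microglia and vascular sums somewhat above it. The inhibitory neuron list departed most. It summed to 965 CPM (492 to 1577 CPM over mice), compared with 225, 197 and 223 CPM, and Nxph1 made 778 CPM of it.

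At the other end, the 15 lowest genes were Runx2, Maml3, Ppfibp1, Ngef, Arhgap15, Sema3a, St6gal2, Tmem132d, Gm48530, Ipcef1, Lyst, Wdr17, Arhgap10, Kcnc2 and Nrgn. Runx2, a transcription factor gene best known from bone, stood at 102 ± 40.8 CPM, compared with 292, 271 and 249 CPM, and was lower than all 3 classes in 11 of 11 mice. Maml3, which encodes a coactivator of Notch, stood at 85.7 ± 42.9 CPM, compared with 283, 299.7 and 232 CPM. Kcnc2, the potassium channel Kv3.2, stood at 131 ± 32.7 CPM, compared with 219, 474 and 328 CPM, and Nrgn, neurogranin, at 57.8 ± 19.2 CPM, compared with 90.8, 126 and 126 CPM. In cluster 1 Runx2 was lower still, at 50.8 ± 34.9 CPM, whereas clusters 6 and 7 had 259 and 282 CPM.

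Whether the tau transgene or the microglial kinase went with a loss of these nuclei was asked from their share of Slc17a7 nuclei. The share was 4.00%, 1.87%, 3.36% and 1.10% in non-transgenic mice 1 to 4 (2.58 ± 1.33%, n = 4) and 2.46%, 2.24% and 1.14% in P301S mice (1.95 ± 0.708%, n = 3). It was 3.48% and 2.68% in Ikbkb-/- P301S mice (3.08 ± 0.570%, n = 2) and 1.59% and 2.33% in IkbkbCA P301S mice (1.96 ± 0.530%, n = 2). The lowest and the highest of the 11 mice were both non-transgenic.

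P301S mice differed from non-transgenic mice by -0.632 percentage points (two-sided exact permutation test, p = 0.543, smallest possible p = 0.0286). Both Ikbkb-/- P301S mice lay above all 3 P301S mice, a difference of 1.13 percentage points, but 3 mice against 2 cannot reach a p under 0.1 (exact p = 0.2). IkbkbCA P301S mice differed from P301S mice by 0.0126 percentage points (exact p = 1), and all 7 tau mice from the 4 non-transgenic mice by -0.304 (exact p = 0.627, smallest possible 0.00303). Adjusted over these 4 comparisons the exact p were 0.836, 0.8, 1 and 0.836. None passed the test, and for the kinase alleles the design could not. The Ikbkb-/- difference was larger than the SD of either group. It was 1.31 percentage points without called doublets (exact p = 0.1), 0.860 with a stricter selection (exact p = 0.3), 1.49 with a looser selection, where the groups overlapped (exact p = 0.3), and -0.244 with nuclei of 0 or 1 Slc17a7 UMI added (exact p = 0.9). As a share of all nuclei that passed the filters, members made up 0.640% and 0.666% in Ikbkb-/- P301S mice and 0.156% to 0.394% in P301S mice, a difference of 0.390 percentage points (exact p = 0.1, the smallest possible). Non-transgenic mice had 0.187% to 0.875% on that scale. Within the floxed line both P301S mice (2.46% and 2.24%) lay between the non-transgenic mice (4.00% and 1.87%) and under both Ikbkb-/- P301S mice. Within the active IKKβ line the only P301S mouse (1.14%) lay between the non-transgenic mice (3.36% and 1.10%) and under both IkbkbCA P301S mice. Nuclei of at least 5000 UMIs were also thinned to 5000, those with fewer were left out, and the rule was applied again. This left 4 to 22 members per mouse, and the 4 differences were -0.609, 0.864, 0.404 and -0.246 percentage points. A share does not tell fewer of these cells from more of the other cells it is taken over.

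The near-projecting-like nuclei alone were a steadier share, at 1.13%, 1.01%, 0.622% and 0.670% of Slc17a7 nuclei in non-transgenic mice (0.857 ± 0.249%) and 1.40%, 1.16% and 0.805% in P301S mice (1.12 ± 0.299%). They made up 0.988% and 0.710% in Ikbkb-/- P301S mice and 1.06% and 1.07% in IkbkbCA P301S mice. With this selection, chosen after seeing the data, the differences were 0.264 (P301S, exact p = 0.257), -0.272 (Ikbkb-/-, exact p = 0.4), -0.0574 (IkbkbCA, exact p = 0.7) and 0.170 percentage points (all tau mice, exact p = 0.258). All 4 had the opposite sign to those over all members. When the 2 libraries with under 20 members were left out, the differences over all members were -0.723, 0.730, -0.391 and -0.610 percentage points.

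**Figure D4:**
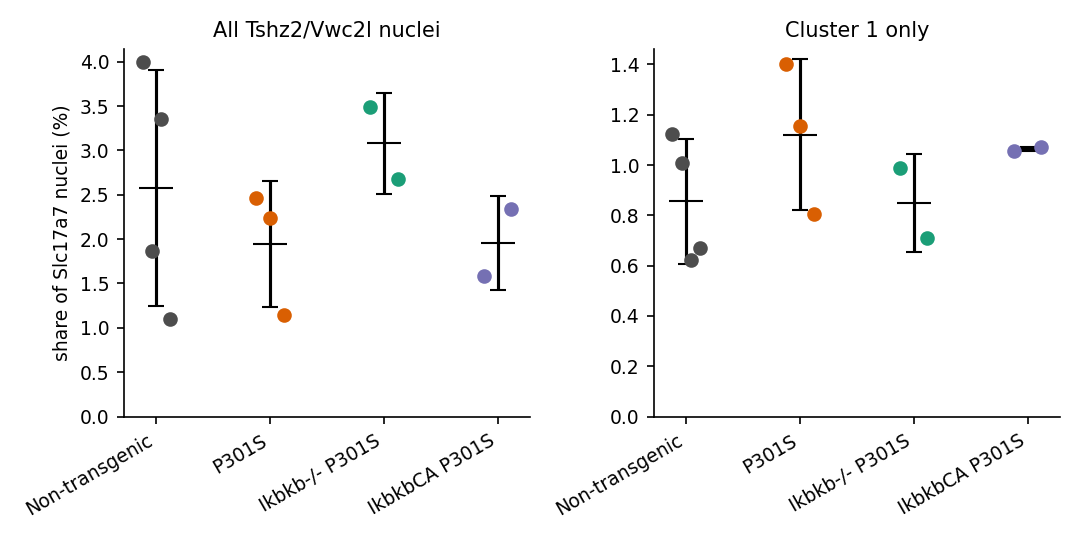
Share of Slc17a7 nuclei (%) that were Tshz2/Vwc2l nuclei (left) or near-projecting-like nuclei of cluster 1 (right) by genotype, with 1 point per mouse and bars for the mean ± SD. The 4 non-transgenic mice span 1.10% to 4.00% on the left and 0.622% to 1.13% on the right.

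Gene expression within the members was then compared between genotypes on counts summed per mouse, over 7420 genes, with a biological coefficient of variation of 17.0%. A gene was called at an adjusted p under 0.05 and an absolute log2 fold change over 0.1 (edgeR's quasi-likelihood test, Benjamini-Hochberg). No gene was called between P301S and non-transgenic mice (0 of 7420, 0%, 327 at an unadjusted p under 0.05), nor between all tau mice and non-transgenic mice (0%, 413). None was called between Ikbkb-/- P301S and P301S mice (0%, 533) or between IkbkbCA P301S and P301S mice (0%, 474). DESeq2 called 2, 0, 0 and 2 genes in the order named. Breeding line as a covariate left all 4 at 0, while age as a covariate gave 4 calls for P301S (Gm28928, Ptprm, Sgcz and Zfp536) and 3 for IkbkbCA (Gm28928, Ptprm and Sgcz). Ages differed between groups, at 8.39 and 9.15 months in Ikbkb-/- P301S mice and 9.15, 10.03 and 10.75 months in P301S mice. Both kinase contrasts use the same 3 P301S mice. In the other Slc17a7 nuclei edgeR called 5 genes for P301S and 6 for all tau mice and none (0) for either kinase allele.

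For the genes named next, levels in single mice are CPM scaled by TMM, as in the test, and so differ somewhat from the CPM given above. The genes with the smallest p were named after their values were seen. For P301S mice this was Zfp536, a zinc finger repressor gene, where the log2 fold change was 1.96 with an SE of 0.37 (adjusted p = 0.354 by edgeR and 0.0155 by DESeq2). Its levels were 16.6, 40.0, 22.4 and 13.9 CPM in non-transgenic, 56.0, 102 and 140 CPM in P301S, 38.4 and 34.0 CPM in Ikbkb-/- P301S and 60.8 and 29.8 CPM in IkbkbCA P301S mice. P301S and non-transgenic mice did not overlap, while both other tau groups did overlap with the non-transgenic mice. In cluster 1 alone the log2 change of Zfp536 was 0.86 (adjusted p = 0.9999 by edgeR), and the gene was highest in cluster 2, at 87.0 CPM compared with 43.5 CPM in cluster 1. Ankfn1, the second DESeq2 call (adjusted p = 0.0223), had a log2 change of 2.92 ± 0.65 by edgeR (adjusted p = 0.636) and was highest in cluster 2.

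For the IkbkbCA allele the smallest p was that of Thsd4, which encodes an extracellular matrix protein of the ADAMTS-like family, with a log2 change of -3.87 ± 0.64 (edgeR adjusted p = 0.0771, DESeq2 adjusted p = 0.0136). It stood at 58.0, 80.4 and 31.8 CPM in P301S mice and at 5.53 and 2.98 CPM in IkbkbCA P301S mice. Non-transgenic mice had 36.4, 47.1, 40.7 and 9.26 CPM and Ikbkb-/- P301S mice 94.1 and 59.9 CPM. The 2 IkbkbCA P301S mice were thus the lowest of the 11, next to non-transgenic mouse 4 of the same breeding line. Its related gene Adamtsl1 had a log2 change of -2.31 ± 0.44 (edgeR adjusted p = 0.202, DESeq2 adjusted p = 0.0136). In cluster 1 the values were -3.03 for Thsd4 and -0.26 for Adamtsl1, neither called. Over all members, the smallest edgeR adjusted p of any gene in this contrast was 0.50005 with breeding line as a covariate. It was 0.616 without P301S mouse 1, 0.586 without P301S mouse 2 and 0.0632 without P301S mouse 3. Thsd4 was called without non-transgenic mouse 4 (0.0125). P301S mice 1 and 2 came from the floxed line, P301S mouse 3 and both IkbkbCA P301S mice from the active IKKβ line.

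For the Ikbkb-/- contrast the smallest p was that of Gm2164, an antisense RNA gene, with a log2 change of 1.80 ± 0.37 (edgeR adjusted p = 0.448). It was highest in the extratelencephalic-like cluster 4, at 1021 CPM, followed by 659 CPM in cluster 6, 223 CPM in cluster 7 and 167 CPM in cluster 5, with 18.5 CPM in cluster 1. The marker Lypd1 had a log2 change of -2.03 ± 0.44 (edgeR adjusted p = 0.448), with 72.0, 157 and 242 CPM in P301S mice and 29.8 and 38.96 CPM in Ikbkb-/- P301S mice. The 25 leading genes had a median log2 fold change of -0.55 in this contrast, compared with 0.01 over all genes, and 0 were called. The share of members in cluster 1 was 28.4% and 26.5% in the Ikbkb-/- P301S mice and 51.7% to 70.6% in the P301S mice, and its part in these values was not tested. In cluster 1 alone Lypd1 had -0.95 (adjusted p = 0.972).

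The lists followed the same pattern of no calls. Of 43 guidance and adhesion genes tested, 10 (23.3%) had an unadjusted p under 0.05 for all tau mice, 8 of them lower, compared with 5.57% of all genes, and the median was -0.08 compared with -0.01. Of 21 tau and tau kinase genes, 1 did (median 0.04). Of 27 synaptic release genes, which include the rule gene Slc17a7, none did (0, median 0.01). Of 6 NF-κB genes, none (0) did for P301S or for Ikbkb-/- mice and 1 did for IkbkbCA mice, Ikbkb at 0.80 ± 0.36 (edgeR adjusted p = 0.748). Heat shock and unfolded protein genes had 0 of 14 for all tau mice (median -0.04). For IkbkbCA the shares of genes at an unadjusted p under 0.05 were 3 of 21 tau and tau kinase genes (14.3%, all higher), 7 of 43 guidance and adhesion genes (16.3%, all lower) and 6 of 33 glutamate receptors and scaffolds (18.2%, 5 lower), compared with 6.39% of all genes. Of 9 activity-induced genes, 3 (33.3%) had an unadjusted p under 0.05 for all tau mice, each with a negative log2 fold change (median of the 9 genes -0.18). No list held a call in any of the 4 contrasts.

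In the near-projecting-like nuclei alone, a selection chosen after seeing the data, 4179 genes were tested (biological coefficient of variation 16.8%). No gene was called for P301S (0%, 154 at an unadjusted p under 0.05) or for all tau mice (0%, 220), and DESeq2 called 0 in both. Without P301S mouse 1 edgeR called Sgcz for P301S (adjusted p = 0.00138). For all tau mice it called Mgat4c without non-transgenic mouse 3 or P301S mouse 1, and Wwtr1 without IkbkbCA P301S mouse 2. The Ikbkb-/- contrast called 1 gene (0.0239%), Sorcs3, and the IkbkbCA contrast 1 (0.0239%), Cadps2, where DESeq2 also called Pde10a. Sorcs3 and Cadps2 both encode proteins of vesicle traffic: Sorcs3 a sorting receptor of the VPS10 family found at synapses, and Cadps2 a factor that primes dense-core vesicles for release.

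Sorcs3 (chr19:48206025-48805505) stood at 113, 146 and 61.7 CPM in P301S mice and at 316 and 397 CPM in Ikbkb-/- P301S mice. Non-transgenic mice had 135, 109, 165 and 128 CPM and IkbkbCA P301S mice 230.3 and 157 CPM. Both Ikbkb-/- mice were thus above all other mice, and Sorcs3 rose by 1.71 ± 0.29 on the log2 scale (edgeR adjusted p = 0.0113, DESeq2 adjusted p = 0.0413). The adjusted p was 0.0753 without P301S mouse 1, 0.0984 without P301S mouse 3 and 0.393 without Ikbkb-/- P301S mouse 2. In the same nuclei the summed microglia markers stood at 176 and 167 CPM in the Ikbkb-/- P301S mice, at 102, 34.2 and 37.0 CPM in P301S mice and at no more than 155 CPM in any other mouse. The summed oligodendrocyte precursor markers (Pdgfra, Cspg4 and Vcan) stood at 158 CPM in Ikbkb-/- P301S mouse 2 and at no more than 16.3 CPM in any other mouse. The layer 4 and 5 intratelencephalic markers summed to 483 and 496 CPM in Ikbkb-/- P301S mice and to 244, 163 and 370 CPM in P301S mice. Non-transgenic mouse 4 had 640 CPM of them. Other Slc17a7 nuclei held more Sorcs3 than cluster 1, from 528 to 596 CPM in P301S mice and 564 and 542 CPM in Ikbkb-/- P301S mice. The part of these markers in the result was not tested. Over all members the log2 fold change was 0.13 ± 0.50, and in the other Slc17a7 nuclei -0.02 ± 0.15.

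Cadps2 (chr6:23262773-23839421) stood at 601, 419 and 370 CPM in P301S mice and at 111 and 205 CPM in IkbkbCA P301S mice, with 282, 207, 337 and 290 CPM in non-transgenic mice and 375 and 374 CPM in Ikbkb-/- P301S mice. The IkbkbCA P301S mice were the 2 lowest of the 11, just under non-transgenic mouse 2 at 207 CPM, and Cadps2 fell by 1.61 ± 0.29 on the log2 scale (edgeR adjusted p = 0.0213, DESeq2 adjusted p = 0.00935). The adjusted p was 0.126 without P301S mouse 1 and 0.681 without IkbkbCA P301S mouse 1. Over all members the value was -0.26 ± 0.29 and in the other Slc17a7 nuclei -0.21 ± 0.15. In cluster 1 the summed upper-layer markers stood at 757 and 627 CPM in IkbkbCA P301S mice and at 521, 462 and 407 CPM in P301S mice. Non-transgenic mouse 4 had 657 CPM of them, and their part in the result was not tested. Leaving out P301S mouse 1 gave 4 calls in the IkbkbCA contrast. Without Ikbkb-/- P301S mouse 1 the log2 change of Sorcs3 was 1.86. That value rests on Ikbkb-/- P301S mouse 2 alone, the mouse with 158 CPM of precursor markers, and the part of these markers was not tested. With only 2 mice in each of these groups, leaving 1 out assumes that the lone mouse varies like the other groups.

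Finally, the response to the tau transgene (7 tau mice against 4 non-transgenic mice) was compared between the members and the other Slc17a7 nuclei of the same mice. The test of this difference called 11 of 15918 genes (0.0691%, 811 at an unadjusted p under 0.05), of which 9 were lower and 2 higher in the response of the members. Without P301S mouse 3 it called 2 genes, without non-transgenic mouse 4 122, and without both of these small libraries 105. For every 1 of the 11 the members' levels in tau mice overlapped those in non-transgenic mice. The lower genes were the long non-coding RNA Gm32647, the glypican gene Gpc5, the ephrin receptor gene Epha3, the netrin-G gene Ntng2, the Wnt agonist gene Rspo2, the collagen gene Col11a1, Hmcn1, which encodes hemicentin 1, Cemip, a gene of hyaluronan turnover, and Cntnap3, a contactin-associated cell surface protein gene.

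Nkain3, whose product interacts with the sodium pump, differed most clearly by p, by 1.12 ± 0.18 on the log2 scale (adjusted p = 0.000146, edgeR). In members it stood, on CPM scaled by TMM as in this test, at 133, 199, 87.4 and 273 in non-transgenic mice and at 169 to 289 in tau mice (median 237). In the other Slc17a7 nuclei it averaged 141 ± 43.7 in non-transgenic and 101 ± 27.1 in tau mice. The difference in response, taken within a line from log2 of CPM + 1, was 0.77 in the floxed and 1.46 in the active IKKβ line. Nkain3, Gm32647, Gpc5, Lypd1, Sv2c, Npsr1, Runx2, Hmcn1 and Cdh12 each overlap genes on the opposite strand. Among others, so do Sorcs3, Cadps2, Neto2, Cdh9, Wwtr1, Arhgap6, Fbxl7, Phldb2, Tenm2, Epha6, Ralyl, Zfp804b, Gpc6 and Fam19a1. Rnf133 and Rnf148 lie inside Cadps2 on the same strand. Since strand use in counting is not given in the sources used here, reads of overlapping genes were not told apart.

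Gm32647, a long non-coding RNA (chr7:94042691-94709171), differed by -1.54 ± 0.28 (adjusted p = 0.00159, edgeR). It stood at 385, 87.6, 309 and 8.40 in non-transgenic mice and at 7.62 to 175 in tau mice (median 125), and averaged 120.2 ± 31.5 and 111 ± 21.9 in the other nuclei. The level was 698 CPM in cluster 3 and at most 93.7 CPM in any other cluster, and the 3 highest mice were those with the most cluster 3 nuclei (23, 25 and 13). Gpc5 (chr14:115092215-116525179) differed by -1.02 ± 0.21 (adjusted p = 0.0225, edgeR), with 621, 449, 249 and 273 in non-transgenic mice and 40.0 to 650 in tau mice (median 121). Epha3 (chr16:63543534-63864175) differed by -0.998 ± 0.23 (adjusted p = 0.0423, edgeR), with 495, 217, 482 and 63.0 in non-transgenic mice and 66.6 to 317 in tau mice (median 85.7). For Gpc5 the highest of all mice was a tau mouse, Ikbkb-/- P301S mouse 2. Within the floxed and the active IKKβ line the differences in response were -0.74 and -1.04 for Gm32647, -1.30 and -1.29 for Gpc5, and -0.53 and -1.19 for Epha3.

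The remaining 7 differed by -2.21 ± 0.50 (Hmcn1), -2.14 ± 0.43 (Cntnap3), -2.01 ± 0.46 (Col11a1), -1.15 ± 0.26 (Rspo2), -1.03 ± 0.21 (Cemip), -0.97 ± 0.22 (Ntng2) and 1.78 ± 0.41 (Ankfn1), with edgeR adjusted p from 0.0167 to 0.0459. The largest folds came from low levels. In non-transgenic and tau mice Hmcn1 ran from 0 to 39.3 and 0 to 9.35, and Cntnap3 from 8.40 to 73.1 and 0 to 43.3. Col11a1 ran from 4.38 to 22.6 and 0 to 16.4, and Ankfn1 from 0 to 11.8 and 2.54 to 120. The 11 genes were highest in cluster 3 (5 genes), cluster 2 (3), cluster 7 (2) or cluster 4 (1, Nkain3), and none (0) in cluster 1. In the nuclei of cluster 1 alone the same test called none of them, with Nkain3 at 0.72 (adjusted p = 0.128) and the other 10 at an adjusted p of 1. Of these, Gm32647 (1.29), Col11a1 (0.99) and Ntng2 (0.07) had the opposite sign there. Clusters 3, 6 and 7 held 0% to 60.5% of members by mouse, and the part of that share in these 11 differences was not tested.

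**Figure D5:**
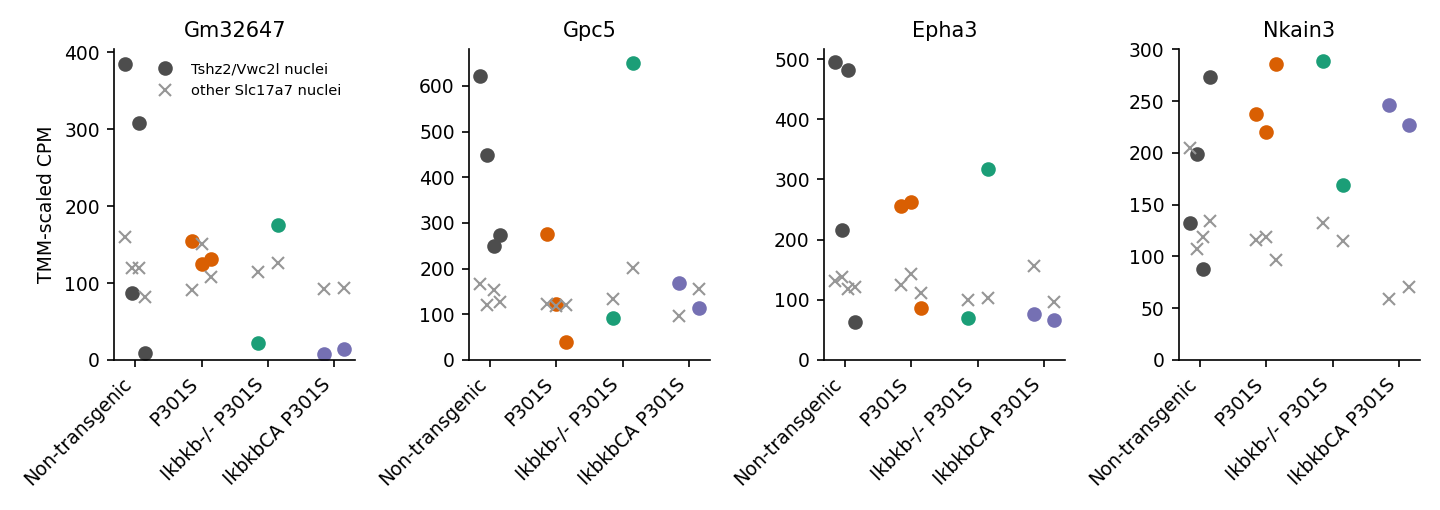
Levels (CPM scaled by TMM) of Gm32647, Gpc5, Epha3 and Nkain3 by genotype in Tshz2/Vwc2l nuclei (filled dots) and in the other Slc17a7 nuclei (crosses), 1 point per mouse. The crosses of Gm32647 average 120.2 and 111, while its dots run from 7.62 to 385 and overlap between non-transgenic and tau mice.

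In cluster 1 the test of the difference in response called 15 other genes of 15089 (0.0994%, 649 at an unadjusted p under 0.05), 10 higher and 5 lower, none (0) shared with the 11. Over all members none (0) of these 15 was called, with the smallest adjusted p at 0.0863 for Phldb2 (edgeR). Cdh12 (-0.18), Zfp804b (-0.43), Ralyl (-0.08) and Runx2 (-0.27) had the opposite sign there. In non-transgenic mice each of the higher genes averaged less in cluster 1 than in the other Slc17a7 nuclei, and each of the lower genes more. Cdh12 averaged 144 and 799 CPM, Runx2 19.9 and 268 CPM, Wwtr1 83.4 and 5.49 CPM and Gpc6 1450 and 365 CPM. All 15 differences in response thus pointed toward the level of the other nuclei. What part RNA of other nuclei had in them was not tested. Among the higher were the cadherin genes Cdh12 (1.10 ± 0.20, edgeR adjusted p = 0.000862) and Cdh9 (2.13 ± 0.47, 0.0154) and Erbb4, the neuregulin receptor gene (1.13 ± 0.23, 0.00404). Cdh12 stood at 184, 179, 127 and 85.3 CPM in non-transgenic mice and at 24.7 to 532 CPM in tau mice (median 289 CPM). P301S mouse 3, the shallowest library, was the lowest of all. Erbb4 was high in 2 tau mice with 542 and 394 CPM, while the other 5 had 86.4 to 144 CPM, compared with 52.4 to 130.1 CPM in non-transgenic mice. Erbb4 is also on the list of inhibitory neuron markers. The 2 high mice, P301S mouse 1 and IkbkbCA P301S mouse 1, had the largest shares of members called doublets (36.4% and 30.6%). What part doublets had in this value was not tested.

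Runx2, low in the members as a whole, was also higher in the response of cluster 1 (1.67 ± 0.40, edgeR adjusted p = 0.0329), with 5.42, 34.6, 22.5 and 17.1 CPM in non-transgenic and 34.2 to 125 CPM in tau mice. Only the lowest tau mouse overlapped with non-transgenic mice. Hpcal1, a neuronal calcium sensor gene, was at 0 in all 4 non-transgenic mice and at 0 to 67.8 CPM in tau mice, at most 15 counts in a mouse, and no fold is given. The others higher were Zfp804b (1.30 ± 0.30), Fam19a1 (0.78 ± 0.19), Epha6 (0.71 ± 0.17), Ralyl (0.71 ± 0.17) and Tenm2 (0.57 ± 0.14).

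The 5 lower were Fbxl7 (-2.56 ± 0.52), Arhgap6 (-2.54 ± 0.49), Phldb2 (-2.25 ± 0.47), Wwtr1 (-2.05 ± 0.47) and Gpc6 (-0.66 ± 0.15). Wwtr1, which encodes the Hippo pathway coactivator TAZ (chr3:57455649-57575910), was at 75.9, 63.4, 74.8 and 119 CPM in non-transgenic mice and at 0 to 51.4 CPM in tau mice. It was the only gene of the 15 whose groups did not overlap, and it rested on at most 14 counts in a mouse. Fbxl7 was high in 2 non-transgenic mice with 168 and 76.7 CPM, while the other 9 mice had 0 to 31.6 CPM. Arhgap6 stood at 222, 0, 82.3 and 0 CPM in non-transgenic mice and at 0 to 36.1 CPM in tau mice. Leaving out 1 mouse at a time gave 1 to 18 calls, with 18 without P301S mouse 3, 1 without P301S mouse 1, 3 without non-transgenic mouse 1 and 8 without IkbkbCA P301S mouse 1.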

How the data were processed

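Nuclei of frozen cortex were profiled with the 10x 3′ v3 kit, and the authors deposited raw UMI counts per gene and barcode for each of the 11 mice, made, per the submitters' processing notes, with Cell Ranger 3.1.0 on mm10 with unspliced transcripts counted (Seurat 3.0 is also named). The filters kept nuclei of 300 to 8000 genes in which mitochondrial genes took no more than 5% of UMIs. The members, gene lists and tests were chosen with earlier results of these data known. Counts of members were summed per mouse (153662 to 1084959 UMIs, where the smallest sum limits the precision most) and tested with edgeR 4.0.16 (filterByExpr, TMM, quasi-likelihood, 1 term per genotype over all 11 mice) in R 4.3.3, with DESeq2 1.42.0 as an alternative. The difference in response was an interaction over members and other Slc17a7 nuclei, with a term per mouse. Shares were compared by two-sided exact permutation tests, computed in Python over all regroupings of the mice. Members were clustered with scanpy 1.11.5 (Python 3.11.15) from 1000 variable genes, 15 principal components and 15 neighbours at a Leiden resolution of 0.2. Doublets were scored against simulated pairs at 0.8% per 1000 barcodes and kept. Per contrast, the 8 called genes of largest absolute log2 fold change in each direction were named, with the 25 highest and 15 lowest genes against the classes, of which 1 is not reported here. Coordinates are those of GENCODE M21 (GRCm38, the build of mm10). Alternatives were another normalisation, filter, selection, covariate, tool and set of mice.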

Additional observations from a re-analysis of the deposited data

Results flagged for a closer look

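In 11 genes the response to the tau transgene differed between Tshz2/Vwc2l nuclei and the other Slc17a7 nuclei of the same mice, by the test of that difference itself. The log2 differences were 1.12 for Nkain3 and 1.78 for Ankfn1, which were higher in the response of the members. They were -2.21 for Hmcn1, -2.14 for Cntnap3, -2.01 for Col11a1, -1.54 for Gm32647, -1.15 for Rspo2, -1.03 for Cemip, -1.02 for Gpc5, -0.998 for Epha3 and -0.97 for Ntng2. Hmcn1, Cntnap3, Col11a1 and Ankfn1, with the largest folds, had low levels, each at 0 in at least 1 mouse. None (0) of the 11 was called in the nuclei of cluster 1 alone, and the cause was not tested. Dixon's test marked 0 of 51 values in the group of 4 non-transgenic mice, where 5% would be marked by chance. It was not run on the smaller groups or on the scaling plot, in which non-transgenic mouse 4 and P301S mouse 3 stood apart.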

How the results depend on the processing

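The groups held only 2 to 4 mice, and the shallowest library 153662 UMIs, which limits the precision of genes with few counts. The 0 calls in each genotype contrast became 4 (P301S: Gm28928, Ptprm, Sgcz, Zfp536) and 3 (IkbkbCA) with an age covariate. A filter of 10 counts gave 1 (Ikbkb-/-, Gm2164) and 2 (IkbkbCA, Adamtsl1 and Thsd4), and the looser selection (at least 3 Tshz2 and 1 Vwc2l UMIs) 1 (IkbkbCA, Thsd4). DESeq2 gave 2 (P301S) and 2 (IkbkbCA). Of the selections chosen after seeing the data, adding nuclei of 0 or 1 Slc17a7 UMI gave 1 for P301S and 1 for all tau mice (Gm43049), cluster 1 alone 1 for each kinase allele, and leaving out the libraries under 20 members 2 (IkbkbCA). Without 1 mouse at a time the calls were 0 to 0 for P301S and Ikbkb-/-, 0 to 1 for IkbkbCA (Thsd4, without non-transgenic mouse 4 or either Ikbkb-/- mouse) and 0 to 2 for all tau mice (2 without Ikbkb-/- P301S mouse 2). The replicate block gave 0 calls in all 4, and r between same-numbered mice of different genotypes ran from -0.188 to 0.0853 over 22 pairs. These r were taken on deviations from group means, so in groups of 2 mice each mouse mirrors the other. Whether the numbers pair the samples cannot be decided from them.

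The 11 genes that differed in response became 4 with RLE size factors, 35 with the filter of 10 counts, 20 without called doublets, 7 with the stricter selection (at least 8 and 3 UMIs) and 0 with the looser, and 105 without the libraries under 20 members. Without 1 mouse at a time there were 2 (without P301S mouse 3) to 122 (without non-transgenic mouse 4), with 7 without non-transgenic mouse 1 or P301S mouse 2, 34 without non-transgenic mouse 2, 65 without Ikbkb-/- P301S mouse 2, and 31 and 41 without IkbkbCA P301S mice 1 and 2. The cause was not tested. Nkain3 and Gm32647 kept their direction and call in 16 of 18 alternatives each, and the other 9 genes in 9 to 12. In cluster 1 Ntng2 (0.0694), Col11a1 (0.99) and Gm32647 (1.29) reversed.

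The share differences ranged from -1.13 to -0.159 (P301S), 0.730 to 1.54 (Ikbkb-/-), -0.391 to 0.387 (IkbkbCA) and -0.799 to 0.168 percentage points (all tau mice) without 1 mouse at a time. IkbkbCA reversed without P301S mouse 3 (-0.391), IkbkbCA mouse 2 (-0.362) or the libraries under 20 members (-0.391), and all tau mice without non-transgenic mouse 1 (0.168). Cluster 1 reversed all 4 (0.264, -0.272, -0.0574 and 0.170), and nuclei of 0 or 1 Slc17a7 UMI reversed P301S (0.251), Ikbkb-/- (-0.244) and IkbkbCA (-0.988).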
